A study of Mus musculus with 8 samples.

Results

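Tektins are coiled-coil proteins of cilia and flagella, and mouse has 5 tektin genes, Tekt1 to Tekt5. Their RNA was followed here in the testis of wild-type mice and of mice labelled as homozygous mutants of the protein kinase gene Vrk1. Every probe that carried a tektin gene's name on the array was taken. That gave 5 probes for 4 of the 5 genes, out of 41174 distinct probes: a pair for Tekt1 and 1 each for Tekt2, Tekt3 and Tekt4. No probe bore the name Tekt5, but 1 probe with an older name, 3300001K11Rik, belongs to that gene by its RefSeq synonym, and its values are given beside the others. The tektins were selected from earlier results of the same contrast between genotypes, so their differences are a description, and the fit over all probes is not used as a test of them.

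The tektin bundle runs along the inside of the doublet microtubules, the paired tubes that form the core (axoneme) of every motile cilium and sperm tail. TEKT1, TEKT2, TEKT3 and TEKT4 form this bundle in cilia and in sperm alike, and the sperm tail also holds TEKT5. Male germ cells switch on the genes of the axoneme from late meiosis, and the tail is assembled in the round and elongating spermatids that follow. Mice without Tekt2, Tekt3 or Tekt4 are known for sperm with poor motility.

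The study hybridised total RNA of whole testicular cells from male mice to single-colour Agilent arrays, 4 from wild-type animals (VRK1+/+) and 4 from mutants (VRK1-/-). The labels call the arrays biological replicates of independent experiments without saying which animals they came from, and the sources used here give no age or strain and do not say how Vrk1 was altered. Values below are the log2 of a spot's signal over the 75th percentile of its array, so 0 is the signal at that percentile. Levels of different probes are not comparable with each other.

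The targeted gene was lower in every mutant array on both of its probes, by -2.06 (SE 0.12) and -2.26 (SE 0.15) log2 units (limma, adjusted p = 1.24e-04 and 1.65e-04). All mutant arrays lay on 1 slide and all wild-type arrays on another, so an effect of the slide and one of genotype cannot be told apart. The mutant arrays were brighter: their 75th percentile was 996 ± 87.3 against 719 ± 51.3 on the wild-type arrays (SD, n = 4 each), which is 0.47 log2 units. RNA came from mixed cells, and fewer cells of a type and less RNA per cell cannot be told apart.

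The probes read different stretches of the tektin transcripts, and the first 30 of their 60 bases, as the array files list them, show what was measured.
Tekt1 A_51_P328889: cagaggccatctgctgataggagccattca
Tekt1 A_51_P328890: aggaacaagctggctgatcatctggccaag
Tekt2 A_51_P109933: actgagtccactcaaaatctgccagctgga
Tekt3 A_51_P344527: actactggcgggaattgataccattctgtg
Tekt4 A_51_P387868: agctggctggctaccagtgactggggctgg
Tekt5 A_51_P197645: tggtgatgaccaagtcccgtctggagcacg
In the mm7 coordinates of the array files, the first Tekt1 probe lies on chromosome 11 at 72426295 to 72426354. The 60 bases of the second Tekt1 probe are spread over 72427327 to 72433431, a span of 6105 bases, so this probe crosses at least 1 intron and reads spliced RNA. The Tekt2 probe lies on chromosome 4 at 125766833 to 125766892, the Tekt4 probe on chromosome 17 at 23659610 to 23659669 and the probe with the older name for Tekt5 on chromosome 16 at 10030294 to 10030353. The Tekt3 probe lies on chromosome 11 at 63159667 to 63159727 and was designed on a cDNA clone, with no RefSeq transcript listed for it. No annotation of mm7 was used here, so exon, intron or UTR was not assigned to the other probes.

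All tektin probes read lower in the mutant testis, and Tekt3 by the most. The fitted differences ran from -0.50 to -1.32 log2 units, with a median of -0.61 over the 5 probes, against a median of 0.05 over all 33718 tested probes. All 5 passed the filter on dim probes, and each was well above background on all 8 arrays, as was the probe for Tekt5. Of the 5, 4 had an adjusted p under 0.05, where 10.8% of all tested probes did so in the lower direction. The groups did not overlap on any of the 5, where 13.8% of all tested probes were likewise lower without overlap. Because the members were picked from this contrast, nothing is read from either count. The first count was 1 under quantile normalization, 1 under cyclic loess and 0 with no scaling and without mutant arrays 1 and 4. It was 3 with a model-based background correction. With median scaling, with array weights and with outlier spots kept, among other settings, it was 5.

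Tekt3 encodes the tektin whose loss in mice leaves sperm that swim forward poorly. It measured -0.81, -0.15, -0.24 and 0.68 on the 4 wild-type arrays and -1.70, -1.45, -1.70 and -0.94 on the 4 mutant arrays. Every mutant array was below every wild-type array, but only narrowly at the edge, where wild-type array 1 and mutant array 4 lay side by side. The wild-type mean was -0.13 ± 0.61 and the mutant mean -1.45 ± 0.36 (SD, n = 4 each). That is a difference of -1.32 (SE 0.30), or 2.49-fold lower. Array 4 was the highest of its group in both genotypes, and the wild-type arrays of this probe had the widest spread of the 6.

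Tekt4 encodes the tektin whose absence in mice disturbs the coordinated beat of the sperm tail. Its probe gave 6.28, 6.71, 6.77 and 6.60 in wild type and 5.76, 5.97, 5.62 and 5.68 in the mutant. The groups were clearly apart, and wild-type array 1 was again the lowest of its group. The difference was -0.83 (SE 0.15), or 1.77-fold lower, from 6.59 ± 0.22 to 5.76 ± 0.15 (SD, n = 4 each).

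Tekt2 encodes tektin 2, which the flagellum needs for a normal bend. Its probe gave 6.66, 6.66, 6.74 and 6.46 in wild type and 6.18, 6.22, 5.85 and 5.81 in the mutant. No mutant array reached the lowest wild-type array, and mutant arrays 3 and 4 were lower than mutant arrays 1 and 2. The difference was -0.61 (SE 0.15), or 1.53-fold lower, between means of 6.63 ± 0.12 and 6.02 ± 0.22 (SD, n = 4 each).

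Tekt1, which encodes another strand of the bundle, had a pair of probes. The probe that crosses an intron gave 5.14, 5.15, 5.24 and 5.28 in wild type and 4.62, 4.77, 4.54 and 4.54 in the mutant. Both groups were tight and did not overlap, with a difference of -0.59 (SE 0.12), or 1.50-fold lower. The other Tekt1 probe gave 6.78, 7.24, 7.29 and 7.16 in wild type and 6.62, 6.73 and 6.52 in mutant arrays 1 to 3. Its spot on mutant array 4 was called an outlier by the scanner software and left out, so n was 3 in the mutant. Here the lowest wild-type array almost met the highest mutant array, and the difference was -0.50 (SE 0.17), or 1.41-fold lower. The probes thus gave Tekt1 differences of the same direction and similar size.

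Tekt5, whose protein is known from the sperm tail, was read by the probe with the older name. It gave 2.81, 2.94, 3.00 and 3.20 in wild type and 2.36, 2.05, 1.70 and 2.59 in the mutant. The groups did not overlap, mutant array 4 came nearest to wild type and mutant array 3 was the lowest. The difference was -0.81 (SE 0.20), or 1.76-fold lower, between 2.99 ± 0.17 and 2.18 ± 0.39 (SD, n = 4 each).

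**Figure D1:**
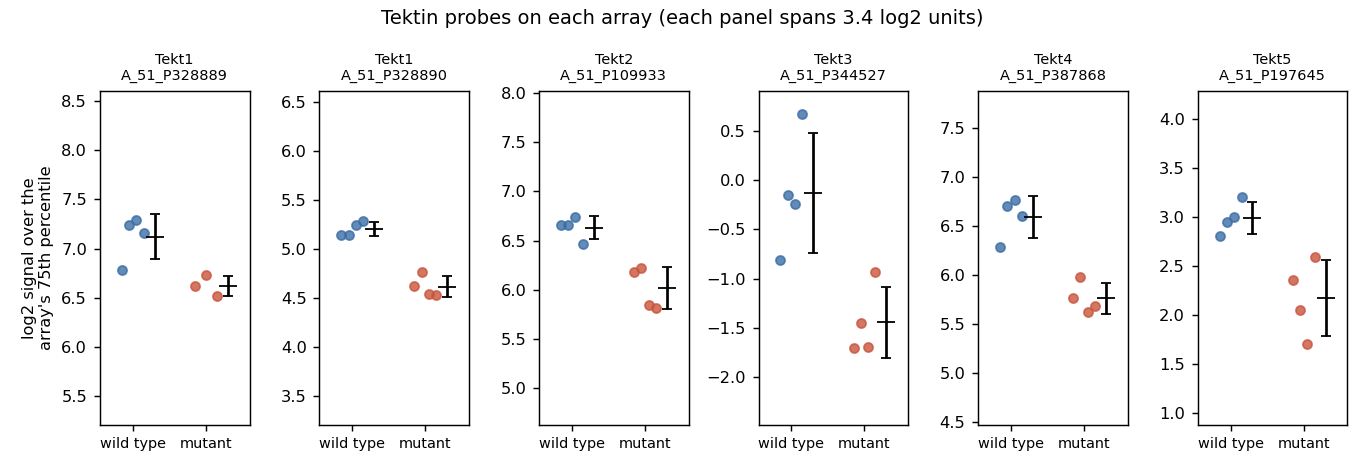
Each panel shows 1 tektin probe, with the log2 signal over the array's 75th percentile on the vertical axis, 1 point per array (blue wild type, red mutant) and the mean ± SD as a black bar. Every panel covers the same number of log2 units, mutant array 4 is missing from the first panel, and the Tekt3 groups lie farthest apart, at -0.13 ± 0.61 and -1.45 ± 0.36.

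In the signals as the scanner software gave them, before any scaling between arrays, wild-type and mutant arrays overlapped on all 6 probes. The Tekt2 signal was 68846, 69023, 77193 and 69691 in wild type and 70005, 69338, 55753 and 63281 in the mutant, and the mutant mean was 0.907 of the wild-type mean. The corresponding ratio was 0.966 and 0.918 on the Tekt1 probes, the first with the outlier spot of mutant array 4 included and 0.930 without it, 0.774 for Tekt4 and 0.811 for Tekt5. Tekt3 had the lowest ratio, 0.528, from signals of 388, 615, 611 and 1265 in wild type and 296, 340, 298 and 587 in the mutant. The Tekt1 and Tekt2 signals thus differed little between genotypes before scaling, on arrays whose 75th percentiles differed by 0.47.

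The size of a difference went with the brightness of a probe over the whole array, which bears on the tektins because most of their probes are bright. Tested probes with a mean level of 6 or above, 269 in number, had a median difference of -0.44, and 95.2% of them were below 0. Those from 4 to 6 had a median of -0.45, those from 2 to 4 of -0.36, those from 0 to 2 of -0.21 and those from -2 to 0 of 0.003. Below -2 the median was 0.33. Against the probes of their own interval, the Tekt1 probes lay -0.06 and -0.14 from the median and Tekt2 lay -0.18 from it. Tekt4 lay -0.39 and Tekt5 -0.46 from theirs. Tekt3 lay -1.32 from the median of its interval, the farthest of the 6.

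Ranked within their intervals, 34.2% and 21.7% of probes had a lower difference than the Tekt1 probes and 15.2% had a lower one than Tekt2. For Tekt4 this was 2 of 269 probes, for Tekt5 52 of 3133 and for Tekt3 8 of 7722. Because the tektins were picked from this contrast, these ranks are a description and nothing is read from them. The Tekt1, Tekt2 and Tekt4 spots were all bright enough to be read at the scanner's low detector (PMT) setting on all 8 arrays, which the software rescales to the high setting, while the Tekt3 and Tekt5 spots were read so on none. The 750 tested probes read at the low setting on all 8 arrays had a median difference of -0.45, and 38.8% of them had an adjusted p under 0.05 in the lower direction. The part of brightness and of detector setting in the tektin differences was not tested.

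**Figure D2:**
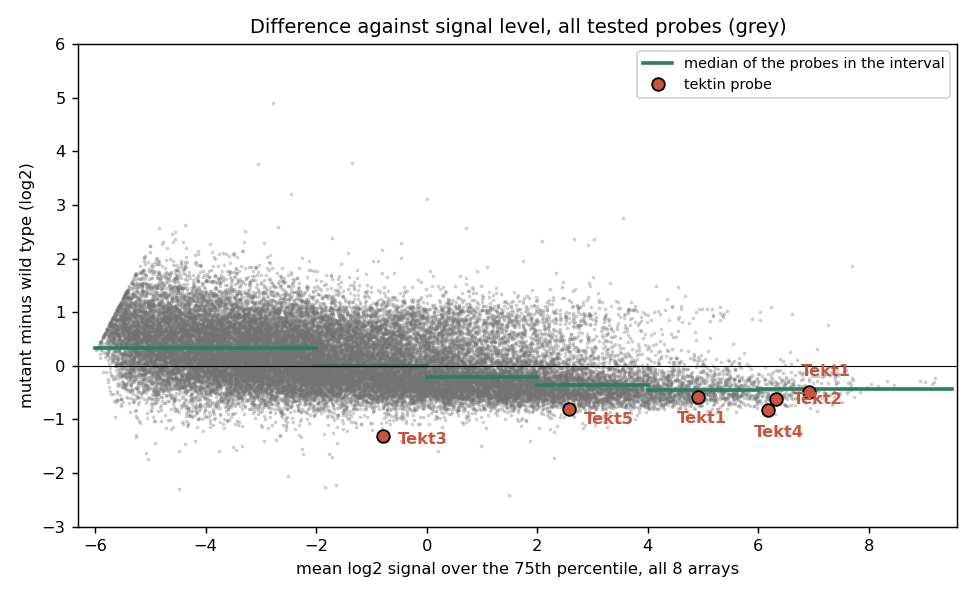
The mean log2 level over all 8 arrays is on the horizontal axis and the mutant minus wild-type difference (log2) on the vertical axis, with all 33718 tested probes in grey, the median of each level interval as a green line and the tektin probes as red points. The Tekt1, Tekt2 and Tekt4 points lie near or under the green line at -0.45 and -0.44, and Tekt3 lies -1.32 from its line.

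The size of most tektin differences changed with the way the arrays were made comparable. With quantile normalization, which gives all arrays the same distribution of signals, the median over the 5 probes was -0.24, and with cyclic loess, which removes trends with brightness, it was -0.19. Under these the Tekt1 and Tekt2 differences ran from -0.24 to -0.07, Tekt4 was at -0.43 and -0.35 and Tekt5 at -0.62 and -0.58. With no scaling at all, an alternative chosen after the data had been seen, the median was -0.14. Tekt3 had -1.38 after quantile normalization, -1.36 after cyclic loess and -0.85 when nothing was scaled. Scaling by the E1A spike-ins, transcripts added in known amount to every sample, gave a median of -0.66 and a Tekt3 difference of -1.36. Scaling by the array median gave -0.83 and -1.53, and a model-based background correction (normexp) gave -0.62 and -1.29. The sign was negative for all 6 probes under each of these.

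**Figure D3:**
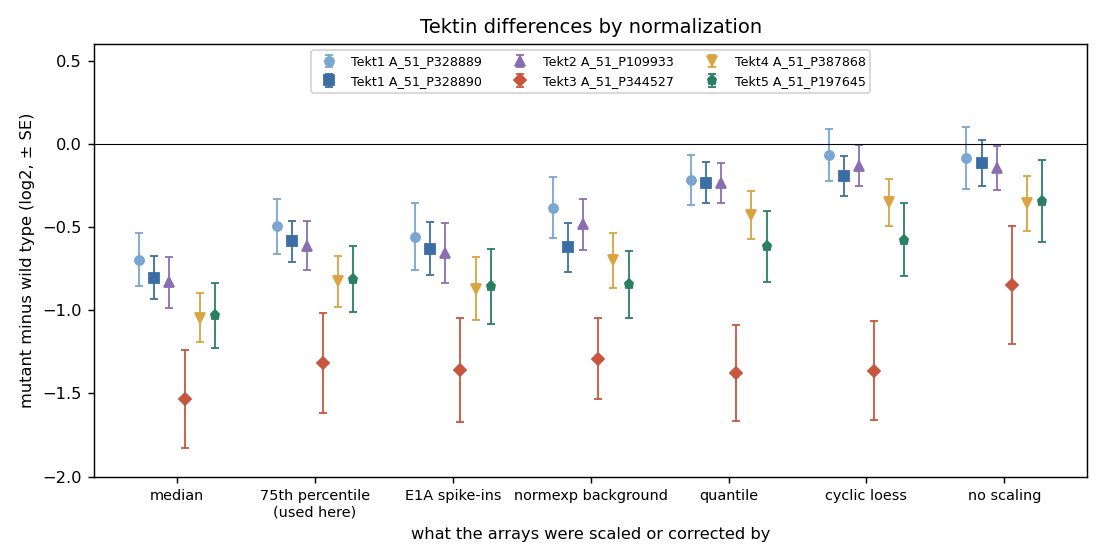
For each way of scaling or correcting the arrays, points give the mutant minus wild-type difference (log2) of every tektin probe and bars its SE. Tekt3 stays between -1.53 and -0.85 throughout, while the Tekt1 and Tekt2 probes move to between -0.24 and -0.07 with quantile normalization and cyclic loess.

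The other proteins of the doublet and its attachments give the surroundings of the tektins. For 10 of the 32 listed genes for proteins inside the doublet and at its inner junction, no probe was found on the array. The other 22 were tested. Of these, 12 fell, none rose and 10 did not pass (limma, adjusted p under 0.05), where 13.3% of all 23157 tested genes fell and 22.2% rose. Their median difference was -0.57, against 0.03 for all genes. The mean level of this list was 3.41 to 3.67 on the wild-type arrays, and brightness bears on the lists as well. Of all tested probes, 16.5% fell at levels from 0 to 2 and 28.1% from 2 to 4. From 4 to 6 the share was 37.3%, and at 6 or above 38.3%. The part of brightness in the list counts was not tested. Cfap20, a protein of the inner junction, fell by 0.66 (SE 0.16, limma adjusted p = 0.0144). Efcab6, a calcium-binding protein of the doublet, fell by 0.58 (SE 0.12, limma adjusted p = 0.00866). The protofilament-ribbon protein gene Ribc2 fell by 0.62 (SE 0.17, limma adjusted p = 0.0198) and Cfap161 by 0.61 (SE 0.16, limma adjusted p = 0.0167). On all of these the groups did not overlap. Dusp3, a phosphatase gene, was the single tested gene of the list with a difference above 0, at 0.29, and did not pass; it is named after its value was seen.

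Radial spokes join the doublets to the central pair of microtubules and carry signals for the beat. Of 31 listed genes of both structures, 27 were tested and 18 fell, with none higher and a median of -0.57. Spag16, a central pair protein gene, measured 4.67, 4.55, 4.45 and 4.61 in wild type and 3.66, 4.00, 3.80 and 3.64 in the mutant, well apart. It fell by 0.79 (SE 0.13, limma adjusted p = 0.00358), although its other probes differed by -0.68 and 0.21. The spoke-head genes Rsph6a and Rsph9 fell by 0.69 (SE 0.13) and 0.74 (SE 0.15), with limma adjusted p = 0.00538 and 0.00715. Spef2, needed for tail assembly, fell by 0.70 (SE 0.15, limma adjusted p = 0.00845).

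The dynein regulatory complex links neighbouring doublets, and a molecular ruler sets the spacing of spokes and dynein arms along them. Of 14 listed genes 13 were tested, 6 fell, none rose, and the median was -0.62. The ruler gene Ccdc40 fell by 0.81 (SE 0.16, limma adjusted p = 0.00655). The complex members Ccdc65, Fbxl13 and Drc3 fell by 0.68 (SE 0.15), 0.65 (SE 0.17) and 0.71 (SE 0.19), with limma adjusted p = 0.00979, 0.0168 and 0.0195. Over the 3 structural lists together, 36 of 62 tested genes fell, 61 had a difference below 0 and the median was -0.57. Of all tested probes at levels from 2 to 4, 79.3% were below 0, with a median of -0.36. The other probes of Efcab6, Rsph6a and Ccdc65 differed by -0.44, -0.78 and -0.51. None of the 62 had a difference beyond that of Tekt3.

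These counts rested on the full set of arrays and on the scaling. Without mutant arrays 1 and 4 they were 0, 1 and 0 for the 3 lists in the order given, where 244 genes fell in all against 3088 with every array. The list medians were then -0.45, -0.46 and -0.42. Leaving out 1 array at a time gave 3 to 16, 9 to 20 and 4 to 9, and wild-type arrays 2 and 3 and mutant arrays 1, 3 and 4 each took the first count to 6 or below and the second to 11 or below. Cyclic loess gave 1, 10 and 2 and no scaling 0, 0 and 0.

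Factors that switch on cilium and spermatid genes were listed apart, 18 in number, of which 15 were tested, 8 fell and 1, Myb, rose by 0.59. Foxj1, the forkhead factor of motile cilia, measured 3.24, 3.43, 3.43 and 3.45 in wild type and 2.85, 2.85, 2.58 and 2.18 in the mutant. Its groups were apart, with mutant array 4 the lowest, and it fell by 0.77 (SE 0.17, limma adjusted p = 0.00969). Rfx2, an RFX factor of cilia and spermatids, fell by 0.58 (SE 0.15, limma adjusted p = 0.0163). The related Rfx3 differed by -0.40 (SE 0.14, limma adjusted p = 0.0510), and did not pass. It passed under 8 other settings, with adjusted p = 0.0102 after median scaling and 0.00447 with array weights among them (limma), and was at 0.07 with no scaling. Its 2 other probes differed by -0.42 and 0.08. Crem, the activator of many spermatid genes, fell by 0.57 (SE 0.14, limma adjusted p = 0.0145) on its brightest probe, and its 5 other probes differed by -0.60 to -0.20. The spermatocyte factor Mybl1 fell by 0.62 (SE 0.13, limma adjusted p = 0.00776). Tbpl1, a factor of spermatids, fell by 0.72 (SE 0.15, limma adjusted p = 0.00782). The other Mybl1 probe differed by -0.19, and the 3 other Tbpl1 probes by -0.33, -0.84 and -0.18. The count of 8 was 0 without mutant arrays 1 and 4 and with no scaling, 3 with cyclic loess and 5 without mutant array 3.

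**Figure D4:**
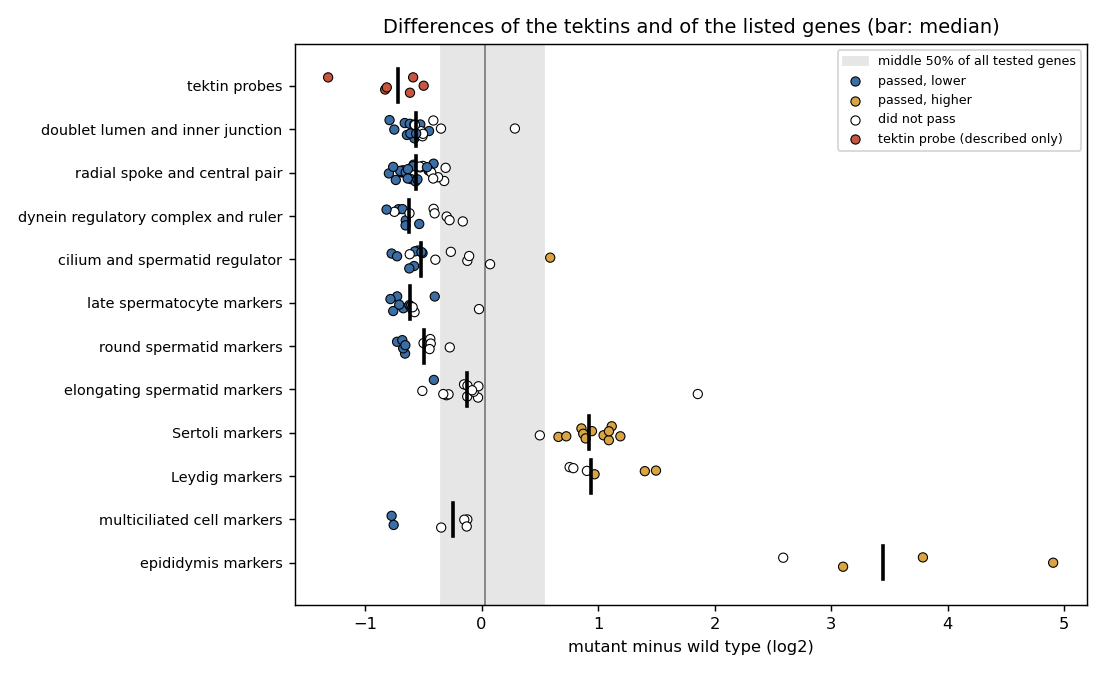
The mutant minus wild-type difference (log2) is on the horizontal axis, with 1 point per tektin probe (top row, all 6) or tested gene of a list, coloured by the limma call, and a bar at each median. The shaded band holds the middle 50% of all tested genes around their median of 0.03, and the structural lists sit at medians of -0.57, -0.57 and -0.62, to the right of Tekt3.

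Promoters of the tektins were searched for letters that the forkhead, RFX and CREM factors of the regulator list are known to bind. RefSeq's table for GRCm38.p6 gave 8 start sites for the 5 genes, and the 250 bases before each were read on both strands. The motifs were GTTGCC (part of the site of RFX factors), GTAAACA (forkhead factors such as FOXJ1) and TGACGTNA (the cyclic AMP response element that CREM binds). All 32841 windows of the table were searched alike, and no matches in the tektin windows overlap. Of the 8 windows 4 hold a match, and shown are 3 of them, 1 for each gene, 5′ to 3′ along the gene, with the matching letters in capitals.
Tekt1 chr11:72361883-72362132, minus strand: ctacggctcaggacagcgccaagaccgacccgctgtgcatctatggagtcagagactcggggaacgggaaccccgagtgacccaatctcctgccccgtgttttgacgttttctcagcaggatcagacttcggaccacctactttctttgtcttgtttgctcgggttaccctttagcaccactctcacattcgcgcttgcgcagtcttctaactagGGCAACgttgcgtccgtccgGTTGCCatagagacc
Tekt2 chr4:126325689-126325938, minus strand: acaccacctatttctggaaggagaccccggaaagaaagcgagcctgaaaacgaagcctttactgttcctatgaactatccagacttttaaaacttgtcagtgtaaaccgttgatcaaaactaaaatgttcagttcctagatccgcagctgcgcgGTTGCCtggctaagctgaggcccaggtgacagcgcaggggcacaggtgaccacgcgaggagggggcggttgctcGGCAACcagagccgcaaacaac
Tekt3 chr11:63061409-63061658, plus strand: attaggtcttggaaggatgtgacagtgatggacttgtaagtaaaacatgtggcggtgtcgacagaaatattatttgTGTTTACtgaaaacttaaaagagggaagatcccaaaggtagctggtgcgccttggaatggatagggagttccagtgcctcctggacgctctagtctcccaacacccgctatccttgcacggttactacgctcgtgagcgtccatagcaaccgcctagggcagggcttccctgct
The Tekt1 window holds the RFX letters at 35 and 15 bases before the start, and the Tekt2 window at 96 and 22 bases before it. The fourth window with a match belongs to a second Tekt2 start nearby and holds the same letters. Of all windows, 10.4% hold this motif. The Tekt3 window holds the forkhead motif at 174 bases before the start, which 3.2% of all windows hold. The response element was in no tektin window and in 2.5% of all windows, and the windows of Tekt4 and Tekt5 and the other starts of Tekt1 and Tekt2 held none of the 3 motifs. A match is a description of letters and not of a bound site. Only the letters given were searched, so a window without a match can still hold a variant of a site.

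Markers of the germ cells from late meiosis onward were mostly below 0 in each of the 3 stage lists, and differences between the stages were not tested. Most bright probes of the whole array were below 0 too. The share was 79.3% of tested probes at levels from 2 to 4, 90.1% from 4 to 6 and 95.2% at 6 or above. The medians of these intervals were -0.36, -0.45 and -0.44. Of the late spermatocyte markers all 12 were below 0, with 8 falling and a median of -0.61, and of the round spermatid markers all 12 were below 0, with 5 falling and a median of -0.49. Of the elongating spermatid markers, which include the protamine genes, 12 of 13 were below 0, with 1 falling, none rising and a median of -0.12. The exception was Odf2, an outer dense fibre gene, whose brightest probe measured 0.23 on wild-type array 1 and 8.87 to 9.06 on the other wild-type arrays, against 8.51 to 8.77 in the mutant. It differed by 1.86 and did not pass, and its 3 other probes differed by -0.14 to -0.04. Without Odf2, which was left out after its values had been seen, the median was -0.14. The mean level over the other 12 genes was then 6.70 to 6.84 in wild type and 6.48 to 6.73 in the mutant, where mutant array 2 lay above wild-type array 4. Wild-type array 1 was the lowest of its group on 5 of the 6 tektin probes. Its mean level of these 12 markers was 6.81, within the range of the other wild-type arrays. That of the round spermatid markers, 3.87, was within the range too. Its level of the late spermatocyte markers was the lowest of the group, at 4.59 against 4.66 to 4.69. It was the highest of its group for Sertoli markers, at 1.00 against 0.74 to 0.78, and for Leydig markers, at 2.77 against 1.96 to 2.48. Mybl1 stands in the spermatocyte and the regulator list, Tbpl1 in the round spermatid and the regulator list and Spag6l in the round spermatid and the spoke list.

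Markers of testis cells without a flagellum were higher in the mutant. Of 12 Sertoli cell markers 11 rose, with a median of 0.92 and mean levels of 0.74 to 1.00 in wild type and 1.40 to 1.92 in the mutant. Of 6 tested Leydig cell markers 3 rose, with a median of 0.94. Over all tested genes 22.2% rose, which was 5145 genes, against 3261 with median scaling and 10973 with no scaling. Multiciliated cells, which line the ducts that leave the testis, also carry tektins. Of their 10 markers 6 were tested, 2 fell (Foxj1 and Dynlrb2), none rose and the median was -0.25, and the mean level was 1.12 to 1.51 in wild type and 0.70 to 1.16 in the mutant, which overlapped. The defining markers Tmem212 and Sntn were too dim on the arrays to be tested.

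Epididymis markers, singled out in an earlier look at these data, were high in some mutant arrays. Over the 4 tested of 8 listed genes, the mean level was -4.06 to -3.18 in wild type and 2.69, -1.67, -2.45 and 1.82 in mutant arrays 1 to 4. Crisp1, a secreted protein of the epididymis, measured 2.50 and 2.80 in mutant arrays 1 and 4, -2.40 and -4.20 in mutant arrays 2 and 3, and -5.56 to -4.98 in wild type. Without mutant arrays 1 and 4 the tektin differences were -0.49 and -0.55 for Tekt1, -0.60 for Tekt2, -1.44 for Tekt3, -0.79 for Tekt4 and -1.11 for Tekt5. The part of the germ cell and somatic cell markers in the tektin differences was not tested.

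Tektin genes did not share 1 profile over the arrays. Likeness was measured as the root mean square of the log2 difference between genes, each centred on its own mean over the arrays. Tekt1, Tekt2 and Tekt4 were 0.17 to 0.19 apart, Tekt5 was 0.28 to 0.33 from these, and Tekt3 was 0.42 to 0.64 from the other 4, with Tekt5 its nearest tektin. No tektin was among the 3 nearest named genes of another. The nearest to Tekt1, over the 7 arrays with a value, were Dock6, Tnfaip2 and Trpc5 at 0.04 to 0.06, and the nearest to Tekt2 were Pex3, Ppm1b and Slc38a9 at 0.05 to 0.06. Those of Tekt4 were 1700063H04Rik, Zfp438 and Otud7a at 0.08, and those of Tekt5 were Spata31d1d, Lrrd1 and Itpripl1 at 0.08 to 0.10. Those of Tekt3 were Edc4, Mterf3 and Hip1r at 0.15 to 0.19. Distances grow with the size of a gene's own changes, and the median distance to all genes compared was 0.85 for Tekt3 and 0.39 to 0.57 for the other tektins. Of the 18040 genes compared, 0.626% were nearer to Tekt3 than Tekt5 was and 2.25% were nearer than Tekt4. Measured from Tekt1 and from Tekt2, 75.1% and 73.0% of the genes compared were nearer than Tekt3. The distances include the genotype difference by which the tektins were selected, so closeness among tektins is a description only.

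The genes next to the tektins on their chromosomes moved in both directions. They were taken by their position in RefSeq's order, whatever their values, after the tektin values were known. Of 10 neighbours, the nearest tested gene on each side of every tektin gene, 5 rose, 1 fell and 4 did not pass (limma, adjusted p under 0.05), where 22.2% of all genes rose and 13.3% fell. Sox8, a neighbour of Tekt4 and a factor of Sertoli cells, rose by 1.11 (SE 0.19, limma adjusted p = 0.00368). Cacna1h on the other side of Tekt4 fell by 0.65 (SE 0.17, limma adjusted p = 0.0162). Around Tekt3, Pmp22 rose by 0.86 (SE 0.21, limma adjusted p = 0.0133) and Cdrt4os1 differed by -0.005.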

How the data were processed

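Total RNA was labelled with Cy3 by a one-colour kit and hybridised to 1 array per sample, per the labels' protocols, and the scans were read by Agilent Feature Extraction 9.5.3.1, per the submitters' processing notes. The deposited intensity of a spot is its background-subtracted and detrended processed signal, per the file headers, with no scaling between arrays, and the deposited value table held the same intensity for all 45018 features. Each signal was divided here by its array's 75th percentile, raised to a floor of 0.0144 of it and converted to log2. The floor was added to the design because signals can be negative. Outlier spots were left out and spots of a probe averaged. A probe was kept if 4 or more of the 8 arrays had it well above background and each group had 3 or more values. The contrast was fitted by lmFit and eBayes of limma 3.58.1 (R 4.3.3), two-sided, with genotype alone in the model. The p-values were Benjamini-Hochberg adjusted over all probes or genes, with a threshold of 0.05, and the procedure was tested on simulated data. A gene's probe with the highest mean level stood for it. RefSeq accessions named 23082 probes and RefSeq synonyms 3073, and the others kept the array file's name.

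The tektins and the gene lists were chosen with earlier results of these data known. Named genes were all tektin probes, Vrk1, the 4 genes with the smallest p of each structural list, Foxj1, Rfx2, Rfx3, Crem and the 3 regulators with the smallest p, and the 3 nearest profiles of each tektin. Other names are marked in the text or are examples of a list. The number of arrays limits the precision. Alternatives covered scaling, background, filter, floor, array weights, the replicate number as a block and left-out arrays.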

Additional observations from a re-analysis of the deposited data

Results flagged for a closer look

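Among 83 groups of 4 arrays checked over the tektin probes, the named genes and the list means, 5 held an array far from the other three, where chance sets about 1 group in 20 apart by this measure. Odf2 measured 0.23 on wild-type array 1, against 8.87 to 9.06 on the other wild-type arrays. Foxj1 measured 3.24 on wild-type array 1, against 3.43 to 3.45. The mean level of the Sertoli markers was 1.00 on wild-type array 1, against 0.74 to 0.78. Vrk1 measured -3.73 on mutant array 1 on 1 of its probes, against -3.50 to -3.46, and Myb measured -3.34 on mutant array 3, against -3.26 to -3.25. Wild-type array 1 was also the lowest of its group on 5 of the 6 tektin probes.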

How the results depend on the processing

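The median difference of the tektin probes, -0.61, was -0.83 with median scaling, -0.24 after quantile normalization, -0.19 after cyclic loess, -0.14 without any scaling, and -0.68 to -0.56 with 1 array left out. With no scaling, as with keeping outlier spots and adding the Tekt5 probe (median -0.71), the choice was made after the data had been seen. The count of genes called lower in the doublet lumen list, 12, was 19 with median scaling, 2 with quantile normalization, 1 with cyclic loess, 6 with normexp, 21 with array weights, 0 without mutant arrays 1 and 4, 0 with no scaling (1 higher) and 3 to 16 with 1 array left out. The spoke count, 18, was 10 with cyclic loess, 1 without mutant arrays 1 and 4, 0 with no scaling and 9 to 20 with 1 array left out. The regulatory complex count, 6, was 12 with median scaling, 2 with quantile normalization, 2 with cyclic loess, 0 without mutant arrays 1 and 4, 0 with no scaling and 4 to 9 with 1 array left out. The regulator count, 8, was 4 with quantile normalization, 3 with cyclic loess, 5 with normexp, 0 without mutant arrays 1 and 4, 0 with no scaling and 5 to 9 with 1 array left out. Its 1 higher gene became 0 with quantile normalization, cyclic loess, normexp and without mutant arrays 1 and 4, and 2 with no scaling. Rfx3 turned from -0.40 to 0.073 with no scaling. The cause of these changes was not tested.

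Over all genes, 62.5% of calls were higher, against 32.8% with median scaling, 41.1% with normexp, 99.1% with no scaling, 81.9% without mutant arrays 1 and 4 and 52.2% with array weights. Median scaling moved the median of all genes from 0.03 to -0.19, normexp to -0.22 and no scaling to 0.50. The fit with the replicate number as a block called 19, 22, 9 and 10 lower in the 4 lists, with a tektin median of -0.61. With this block the SE of the Tekt3 difference was 0.15, against 0.30 without it. Arrays of the same number correlated at 0.28, 0.24, 0.09 and 0.61 in their deviations. Wild-type arrays 1, 2 and 4 were closest to the mutant array of their own number, and wild-type array 3 to mutant array 2. Because not every array was closest to its own number, the numbers were not taken as pairs.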
